A study of Homo sapiens with 6 samples.

Results

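TXNIP and ARRDC4 encode alpha-arrestins, and both mRNAs were much lower in OGT-depleted HT-29 cells than in control cells. TXNIP retained 6.41% of its control level and ARRDC4 retained 14.5%. ARRDC3, the only other alpha-arrestin gene in the deposited table, was higher instead. TXNIP and ARRDC4 are 2 of the 5681 genes in that table and were found by their symbols. They were chosen by the fall in their normalized counts in these 6 libraries, so their differences are given as a description and without a test.

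RNA was sequenced from HT-29, a long-established line of human colorectal cancer cells. The cells expressed a Scramble hairpin (3 libraries, numbered 1 to 3, labelled WT) or a hairpin against OGT (shOGT, 3 libraries, numbered 4 to 6, labelled as a knock down of OGT). OGT is the enzyme that attaches O-GlcNAc, a sugar made from glucose, to proteins in the nucleus and cytoplasm. Cells of both groups therefore carried a hairpin, and the comparison holds 0 untransduced libraries. The sources used here do not say which of the study's OGT hairpins was used, whether the libraries of a group came from separate cultures, or how much glucose the medium held at harvest. The p-values below thus measure only the spread between these libraries.

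Alpha-arrestins are adaptor proteins that bind membrane proteins and recruit ubiquitin ligases, which sends their cargo into the cell. TXNIP, the thioredoxin-interacting protein, binds thioredoxin and promotes the internalization of the glucose transporter GLUT1. ARRDC4 is its close relative and also lowers glucose uptake. Transcription of both genes is known to rise with glucose-6-phosphate through the paired factors MondoA (gene MLXIP) or ChREBP (gene MLXIPL) and MLX, which bind carbohydrate response elements. Both mRNAs are therefore widely used as readouts of glucose entry. In OGT-depleted HT-29 cells, the study reported more glucose-6-phosphate and less glucose uptake than in control cells. Those were separate assays, and their relation to the levels of the pair given below was not tested.

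The bases upstream of the start sites are shown because this glucose response acts through them. TXNIP (ENSG00000265972) lies on the minus strand of chromosome 1 of GRCh38, from 145992435 to 145996600. ARRDC4 (ENSG00000140450) lies on the plus strand of chromosome 15, from 97960698 to 97973838. The transcript of each gene that spans the most bases has 8 exons. RefSeq windows (GRCh38.p14) of 250 bases before and 50 bases after each start were searched on both strands, and the stretches upstream of the annotated starts are printed 5′ to 3′ with the matches described next in capitals. The TXNIP stretch is chr1:145996601-145996829, minus strand, and the ARRDC4 stretch is chr15:97960453-97960697, plus strand.
TXNIP: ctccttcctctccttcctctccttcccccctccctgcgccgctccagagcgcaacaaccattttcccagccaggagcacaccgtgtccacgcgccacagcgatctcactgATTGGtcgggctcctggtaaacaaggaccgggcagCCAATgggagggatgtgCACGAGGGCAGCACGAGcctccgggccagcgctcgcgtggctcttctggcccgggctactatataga
ARRDC4: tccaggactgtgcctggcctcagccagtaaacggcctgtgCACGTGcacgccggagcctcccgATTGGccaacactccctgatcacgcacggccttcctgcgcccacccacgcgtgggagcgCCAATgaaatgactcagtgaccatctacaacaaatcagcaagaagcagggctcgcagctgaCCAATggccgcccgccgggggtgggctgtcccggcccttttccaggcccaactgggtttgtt

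The long run of capitals in TXNIP, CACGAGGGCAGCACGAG, begins at position −88, counted from the RefSeq start. It matches a relaxed carbohydrate response element, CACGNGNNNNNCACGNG, in which 2 CACGNG blocks stand 5 bases apart. Of 35116 promoter windows, 20 (0.0570%) held such a match. The ARRDC4 window held no match to it, but it held an E-box, CACGTG, at −210, as did 7.26% of windows. CCAAT boxes, shown as CCAAT or as ATTGG on the other strand, were found at 2 places in TXNIP (−140 and −105) and at 3 in ARRDC4 (−187, −128 and −67). At least 1 CCAAT box stood in 34.6% of windows. The corresponding window of ARRDC3 held 1 CCAAT box and neither of the other motifs. These matches are descriptions of letters, and binding was not measured here.

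**Figure D1:**
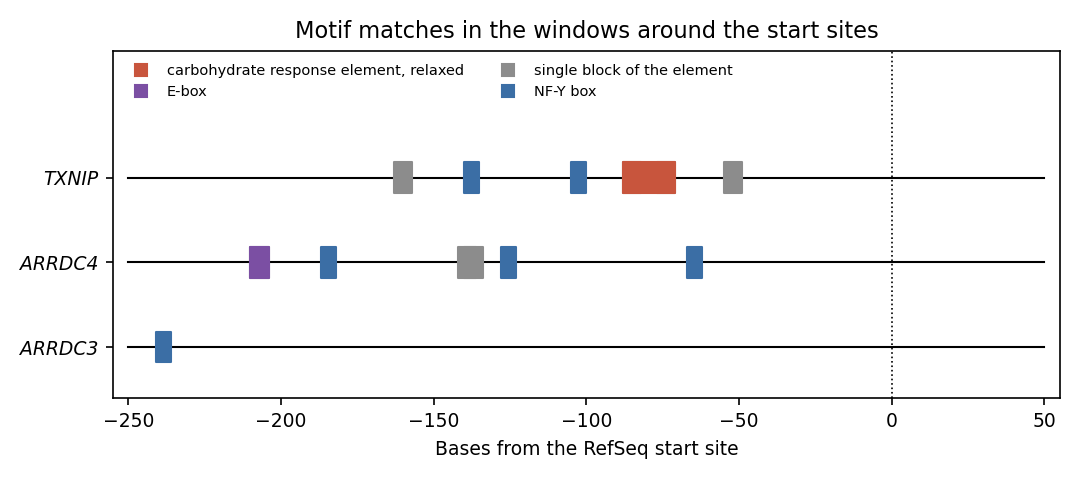
Motif matches in the windows of TXNIP, ARRDC4 and ARRDC3, plotted by their distance in bases from the RefSeq start site (dotted line); each block spans the matched bases, and grey marks CACGNG blocks outside a longer match. The relaxed carbohydrate response element (red) appears in TXNIP alone of these 3 windows, and CCAAT boxes (blue, marked NF-Y box) appear in all of them.

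The 20 windows belong to 20 genes, of which 6 were in the table. TXNIP, RCN3 and HPF1 were lower in shOGT, whereas TIGD1, STX12 and MYL5 were higher. After TXNIP, the lowest log2 fold change was that of RCN3, at −1.99, and TIGD1 had the highest, at 2.22. RCN3 was weakly expressed, with means of 28.3 normalized counts in Scramble and 6.57 in shOGT. Of all genes tested below, 47.2% were called lower in shOGT and 52.2% higher, so nothing is read from how the genes with this match were split.

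OGT itself, examined to check the labels, retained 4.99% of its Scramble level (two-sided p = 0.1 by exact permutation, the lower limit of that p with 3 libraries a group). The deposited values, here called normalized counts, are reads scaled by a size factor, and whole reads could be recovered for 100% of them. The table's genes held 3302558 to 4504303 reads per library, and full library depths were not analysed here. Only genes that the authors called at a 2-fold change and an adjusted p under 0.05 are in it. Of 11 markers of colon epithelium, 4 were in the table. Together they had 4720 to 5339 normalized counts per Scramble library and 6951 to 7211 per shOGT library. The rise of this sum came from KRT20, with means of 877 in Scramble and 5641 in shOGT, so it does not describe the 4 as a set. CDH17 was also higher in shOGT, at 28.7 against 10.8. LGALS4 was lower, at 561 against 2201, and so was VIL1, at 868 against 1891 (46.0% of the VIL1 sequence, in runs of 75 bases, is shared with USP37). Of the leukocyte markers, 0 of 3 were in the table. PDGFRB, 1 of 4 fibroblast markers, had at most 1.80 normalized counts in Scramble and 10.5 to 17.1 in shOGT, and PECAM1, 1 of 3 endothelial markers, had 42.3 to 51.4 and 129 to 200. These levels moved with the groups, and their part in the results below was not tested. In bulk RNA, fewer cells with a transcript and less of it per cell cannot be told apart.

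TXNIP had 7753, 7956 and 7790 normalized counts in Scramble, against 422, 508 and 576 in shOGT. The groups did not overlap, as was so for 99.5% of the 5671 genes tested (47.2% lower and 52.2% higher in shOGT), so nothing is read from it for TXNIP, ARRDC4 or ARRDC3. The means were 7833 ± 108 and 502 ± 77.1 (SD, n = 3 libraries each), a 15.6-fold difference. On log2(normalized count + 1), where changes of weakly expressed genes come out too small, the log2 fold change was −3.97 with a standard error of 0.11. In Scramble, TXNIP ranked 64th of the 5681 genes by normalized count and 60th when counts were divided by gene length. In shOGT it ranked 1231st by normalized count and 1096th per length.

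ARRDC4 had 1223, 1210 and 1181 normalized counts in Scramble and 145, 178 and 203 in shOGT. Again the groups did not overlap and the Scramble libraries lay close together. The means were 1205 ± 21.8 and 175 ± 28.8 (SD, n = 3 libraries each), a 6.88-fold difference and a log2 fold change of −2.79 with a standard error of 0.13. ARRDC4 ranked 807th by normalized count in Scramble and 2179th in shOGT.

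Called here means a log2 fold change over 1 in size with an adjusted p under 0.05, from limma's trend method with Benjamini-Hochberg adjustment over all genes tested. Both genes were called lower, as were 47.2% of the 5671 genes tested, while 52.2% were called higher and 99.4% were called in either direction. These shares reflect how the table was restricted, and nothing is read from the calls of the pair. By log2 fold change, among the 2908 genes with a mean of at least 100 normalized counts, TXNIP was 8th from the lowest and ARRDC4 67th, and OGT, the depleted gene, was 5th.

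**Figure D2:**
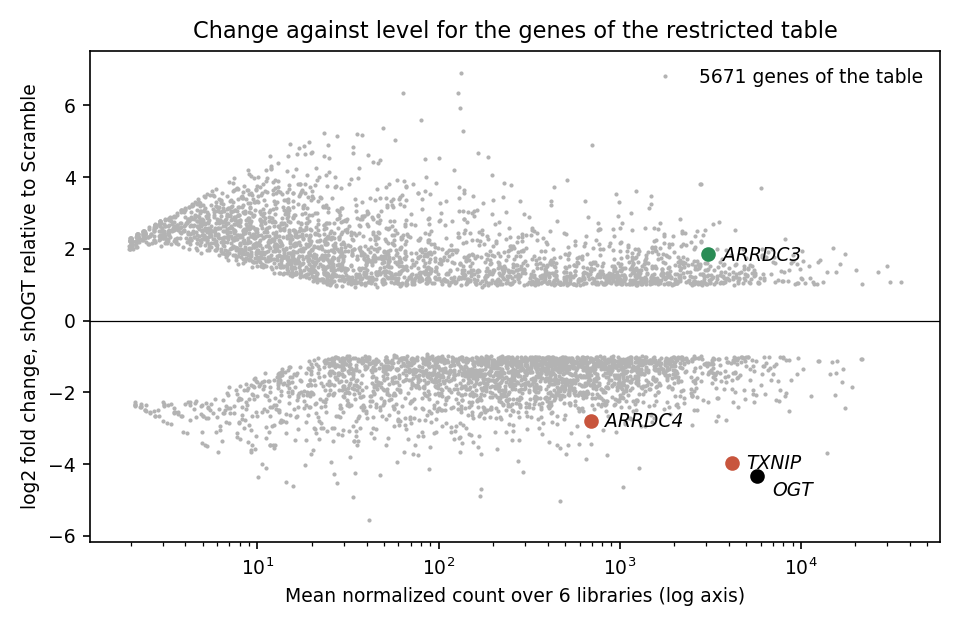
Log2 fold change of shOGT relative to Scramble against the mean normalized count over 6 libraries (log axis) for the 5671 genes tested; the empty band around 0 is where the table lists no genes. TXNIP at −3.97 lies beside OGT at −4.32 among the genes of high level, ARRDC4 at −2.79 lies above them, and ARRDC3 at 1.84 lies on the other side of 0.

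The replicate spread of the pair differed between the groups. In Scramble, the coefficient of variation was 1.38% for TXNIP and 1.81% for ARRDC4. Counting alone would give 1.07% and 2.74% at these read numbers (8465 to 8829 reads per library for TXNIP and 1283 to 1379 for ARRDC4). In shOGT it was 15.4% and 16.4%, against 4.66% and 7.89% from counting alone (401 to 506 reads and 138 to 178 reads). Both genes were lowest in the shOGT library numbered 4 and highest in that numbered 6, whereas OGT was highest in that numbered 5.

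The ratio of the pair therefore stayed nearly constant within each group. Per kilobase of gene length, ARRDC4 stood to TXNIP as 0.140, 0.135 and 0.135 to 1 in the Scramble libraries and as 0.306, 0.312 and 0.313 to 1 in the shOGT libraries. Each set spans little, and the sets lie far apart. The mean ratio was 0.137 ± 0.0031 and 0.310 ± 0.0036 (SD, n = 3 libraries each). TXNIP thus lost more of its level than ARRDC4, by 1.19 on the log2 scale. That difference lay between 1.17 and 1.20 over all alternatives of scaling, pseudocount, filter, tool and left-out library. Scaling and filters could hardly move it, because both genes share each library's factor and both pass every filter.

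Neither gene has exon bases that overlap another gene in GENCODE version 29, and no stretch of 75 bases of these transcripts occurs in a transcript of another gene. The choice of scaling moved the values of the pair. Under a rescaling to the median ratio of the table's genes, which shifted the middle of all log2 fold changes up by 0.71, TXNIP moved to −3.26 and ARRDC4 to −2.07. Another scaling over the same genes, TMM in edgeR, left them at −3.97 and −2.79. Both methods assume mostly unchanged genes, whereas 99.4% of those tested here were called. Whether the factors of either suit these libraries therefore cannot be told here, nor can calls lost under the median-ratio rescaling be weighed. That TMM left the values in place is not read as support for them.

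ARRDC3, an alpha-arrestin that directs the beta2-adrenergic receptor to ubiquitin ligases, had 1126, 1396 and 1496 normalized counts in Scramble and 4117, 5379 and 4916 in shOGT. The groups did not overlap, in the direction opposite to the pair. The means were 1339.5 ± 191 and 4804 ± 639 (SD, n = 3 libraries each), a 3.59-fold difference. Its log2 fold change was 1.84, with a standard error of 0.12 (limma, adjusted p = 3.45e-09). Only genes already called by the authors in these libraries were fitted, so a small p was fixed in advance and nothing is read from it. An antisense gene covers 2.94% of the exon bases of ARRDC3. Per kilobase, ARRDC3 stood to TXNIP as 0.126 ± 0.0174 to 1 in Scramble and as 7.07 ± 0.761 to 1 in shOGT (SD, n = 3 libraries each). The most abundant of the 3 listed alpha-arrestin transcripts per length was thus TXNIP in Scramble and ARRDC3 in shOGT. ARRDC1, ARRDC2 and ARRDC5 were outside the table, and so were the 4 visual and beta-arrestins. Genes outside it were not analysed here.

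**Figure D3:**
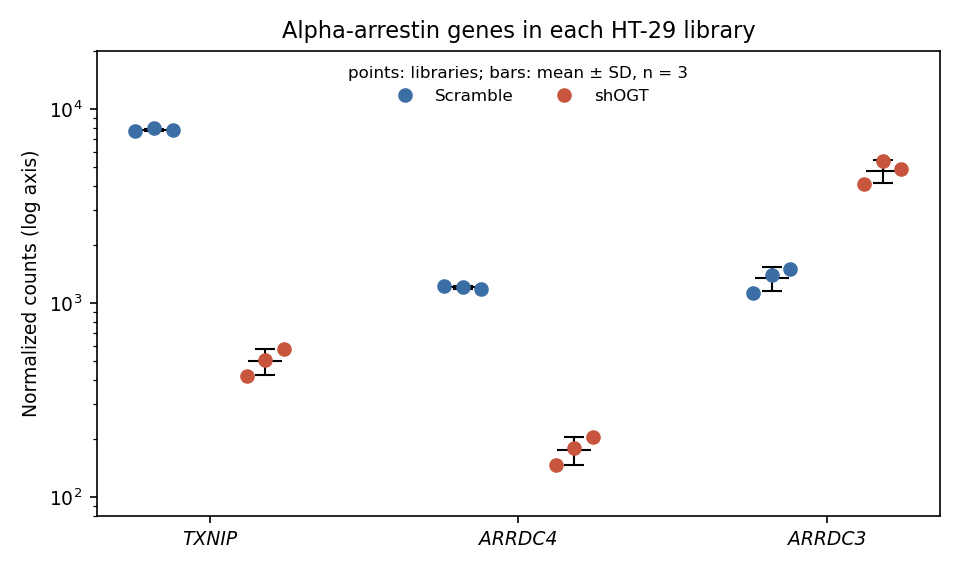
Normalized counts (log axis) of TXNIP, ARRDC4 and ARRDC3 in each library; points are libraries and bars are the mean ± SD of 3 libraries. The Scramble points (blue) of TXNIP and ARRDC4 lie above all their shOGT points (red), and those of ARRDC3 lie below.

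**Figure D4:**
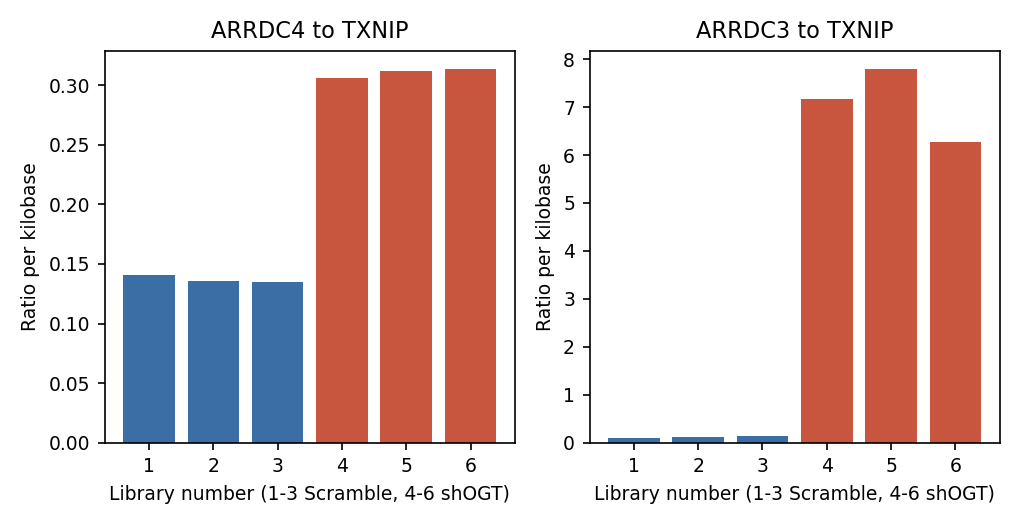
Ratio per kilobase of ARRDC4 to TXNIP (left) and of ARRDC3 to TXNIP (right) in each library, with bars from 0; libraries 1 to 3 are Scramble and 4 to 6 are shOGT. The left ratio steps from 0.135 to 0.140 up to 0.306 to 0.313, and the right ratio from at most 0.141 up to at least 6.27.

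The surrounding pathway was described by lists written from general knowledge, which hold 133 genes in all. Of these, 32 were in the table and all 32 were called, against 99.4% of all genes tested. By direction, 47.2% of all genes tested were called lower and 52.2% higher. Each list has few genes in the table, so a shared direction is not read as a result. Over all genes tested, the median was a log2 fold change of 1.05. The table lists no genes around 0, so this value marks the side with more genes and is not a typical change. It moved to −0.96, −0.93 and −0.90 when shOGT library 4, 5 or 6 was left out. Without Scramble library 1, 2 or 3 it stayed at 1.02 to 1.04. The medians of the lists are therefore not compared with it.

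Of 13 glucose-sensing and MAX-network transcription factors, 5 were in the table and all 5 were called lower, as were 47.2% of all genes tested. The median log2 fold change of the 5 was −1.47. MLXIP, MLXIPL and MLX, the factors that drive the pair, were outside the table. MYC, which also binds E-box sites, had 4796 ± 313 normalized counts in Scramble and fell to 2295 ± 350 (SD, n = 3 each). The other 4 were MYCL at −2.11, the repressors MNT at −1.47 and MXD4 at −1.12, and MXD3 at −3.09. RAB24 shares 38.7% of the MXD3 stretches of that length, so part of its count is uncertain, and an antisense gene shares 18.8% of those of MNT. After rescaling, MYC at −0.35, MNT at −0.76 and MXD4 at −0.40 no longer passed a 2-fold change, nor did MYC without the shOGT library numbered 5 (−0.97) or MXD4 without the Scramble library numbered 1 (−0.98).

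Of 10 other transcription factors known to act on TXNIP, 4 were in the table and all 4 were called lower, as were 47.2% of all genes tested. The median log2 fold change of the 4 was −1.47. NFYC and NFYB are subunits of NF-Y, the factor that binds CCAAT boxes such as those printed above. NFYC fell from 963 ± 61.9 to 235 ± 2.64 normalized counts and NFYB from 732 ± 51.4 to 356 ± 32.3 (SD, n = 3 each). PPARG and HSF1 had log2 fold changes of −1.72 and −1.22. After rescaling, NFYB at −0.32 and HSF1 at −0.50 no longer passed a 2-fold change, and NFYB also missed it when Scramble library 2 (−0.99) or shOGT library 6 (−0.998) was left out.

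Of 19 other genes known to respond to carbohydrate through MondoA or ChREBP, 5 were in the table, 3 called lower and 2 higher, with a median of −1.16. That median is the value of RGS16, the weakest of the 3 falls, and is not a typical change. FGF21, a secreted metabolic hormone, had 38.1, 29.7 and 24.8 normalized counts in Scramble and 0, 1.07 and 0 in shOGT. ACACB, an acetyl-CoA carboxylase, had 45.2, 27.9 and 38.6 in Scramble and 1.05, 4.28 and 1.14 in shOGT. Both genes were near the limit of detection in shOGT, so no fold is given. RGS16 had a log2 fold change of −1.16, and −0.45 after rescaling, where it no longer passed. BHLHE40 rose from 656 ± 89.4 to 1485 ± 117 normalized counts and HBP1 from 501 ± 45.4 to 1210 ± 120 (SD, n = 3 each). COG5, on the other strand, shares 33.5% of the HBP1 stretches. The list was thus split, as were all genes tested (47.2% called lower and 52.2% higher), so nothing is read from the split.

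TXNIP takes its name from thioredoxin. Of 22 genes of the thioredoxin system, 5 were in the table, 3 called lower and 2 higher, with a median of −1.10. That median is the value of TXN2, the weakest of the 3 falls, and is not a typical change. Among all genes tested, 47.2% were called lower and 52.2% higher, so nothing is read from this split. TXN, the cytosolic thioredoxin, and its reductase TXNRD1 were outside the table. TXN2, the mitochondrial thioredoxin that TXNIP also binds, had 702 ± 79.9 normalized counts in Scramble and fell to 326 ± 22.1 (SD, n = 3 each). NXN, a thioredoxin-like protein, and MSRB2, a mitochondrial methionine sulfoxide reductase, had log2 fold changes of −1.47 and −2.86. PRDX1, a peroxidase that uses thioredoxin, rose from 2648 ± 204 to 7104 ± 163 (SD, n = 3 each), although MMACHC, on the other strand, shares 31.3% of its stretches. GLRX3 had a log2 fold change of 1.14. After rescaling, TXN2 at −0.38 and NXN at −0.76 no longer passed a 2-fold change.

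Among 8 listed protein partners of TXNIP, 2 were in the table and both were called lower, as were 47.2% of all genes tested. The first partner is TXN2. The other is DDIT4, the stress-induced inhibitor of mTORC1 also known as REDD1, which had 5640 ± 291 normalized counts in Scramble and fell to 1253 ± 18.1 (SD, n = 3 each). Its antisense gene shares 41.8% of its stretches. NLRP3 and CDKN1B were outside the table.

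WW domains bind the PPxY motifs of alpha-arrestins. Of 9 ubiquitin ligases with such domains, 3 were in the table and all 3 were called higher, as were 52.2% of all genes tested. The median log2 fold change of the 3 was 1.65. WWP1 rose from 1234 ± 108 to 3891 ± 415 normalized counts and SMURF2 from 724 ± 39.2 to 1746 ± 14.2 (SD, n = 3 each). HECW2 had at most 2.76 normalized counts in a Scramble library and 30.7 to 56.8 in the shOGT libraries. ITCH, the ligase that marks TXNIP for degradation, was outside the table. Of 7 ESCRT components that act in the sorting of arrestin cargo, STAM alone was in the table. STAM was called higher, as were 52.2% of all genes tested, with a log2 fold change of 1.47.

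Of 16 glucose and hexose transporters, 2 were in the table and both were called lower, as were 47.2% of all genes tested. SLC2A8, an intracellular transporter, had a log2 fold change of −2.24, and SLC5A1, the sodium-coupled glucose transporter of the gut, had −2.10. SLC2A1, which encodes the GLUT1 that TXNIP internalizes, was outside the table. Of 15 genes that make or use glucose-6-phosphate, the signal to MondoA and ChREBP, 3 were in the table. GPI, which converts it to fructose-6-phosphate, and SLC37A4, which carries it into the endoplasmic reticulum, were called lower at −1.91 and −1.74. GCKR, the regulator of glucokinase, was called higher at 1.16, a call that was lost without the Scramble library numbered 3 (0.99). Among all genes tested, 47.2% were called lower and 52.2% higher, so nothing is read from the split of these 3. Of the stretches of GPI, 10.1% also occur in other genes. The hexokinase genes HK1 and HK2 were outside the table, as were all 9 listed subunits and upstream kinases of AMPK, which phosphorylates TXNIP.

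**Figure D5:**
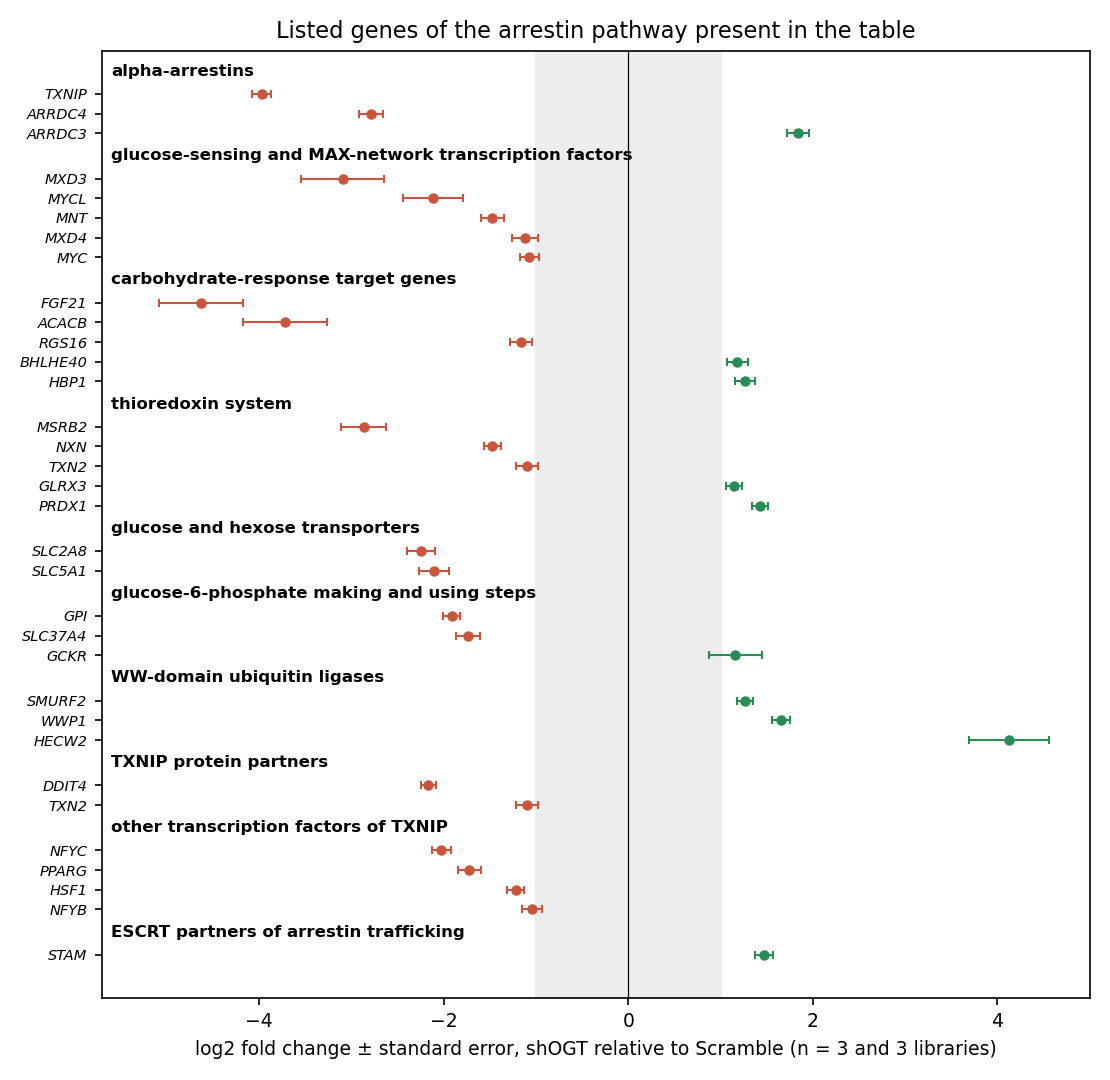
Log2 fold change of shOGT relative to Scramble, ± standard error from limma, for the listed genes present in the table, by list; the grey band marks changes under 2-fold, TXN2 appears in 2 lists, and the positions of FGF21, ACACB and HECW2, which are near 0 in 1 group, depend on the pseudocount. The genes of both lists named for transcription factors lie left of 0, the ubiquitin ligases lie right of 0, and TXNIP at −3.97 and ARRDC4 at −2.79 stand opposite ARRDC3 at 1.84. Of all genes tested, 47.2% were called lower and 52.2% higher, and nothing is read from the side on which a short list lies.

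Genes close to the pair on the chromosomes were examined next. The listed gene nearest to TXNIP, ANKRD34A, 27.9 kb away, was higher in shOGT with a log2 fold change of 1.19. Also called higher within 500 kb of TXNIP were NBPF10, whose sequence is largely shared with its paralogs, ANKRD35, CD160 and LINC01719. Within 500 kb of ARRDC4, 1 of 19 annotated genes was in the table, the noncoding LINC00923, called higher, with 1, 0 and 0 reads in Scramble and 4, 3 and 9 in shOGT.

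Likeness of pattern was measured as the Euclidean distance between log2(normalized count + 1) profiles over the 6 libraries, each centred on its mean, among 4817 genes with a mean of at least 10. The genes closest to TXNIP were ECH1 (distance 0.38), FGFR3 (0.42), OGT (0.56), GLI1 (0.61) and OAS2 (0.63). Those closest to ARRDC4 were SH2B3 (0.20), PAN2 (0.21), CA12 (0.28), FAM129A (0.29) and OAS3 (0.30). Such a distance mostly reflects the size of the difference between the groups, and the libraries are shared by all of these genes. By it ARRDC4 was 76th closest to TXNIP, at 1.45. SH2B3, for example, had 1258, 1309 and 1297 normalized counts in Scramble and 164, 176 and 196 in shOGT. Of the stretches of ECH1, 24.5% also occur in an overlapping gene.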

How the data were processed

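Per the labels, RNA of HT-29 cells was sequenced on an Illumina instrument with paired ends. The submitters' processing notes name cutadapt 1.9, HISAT2 2.0.4, UMI-tools, StringTie 1.3.4d, DESeq2 and edgeR. They also name the mouse build mm8, whereas all 5681 gene positions matched GENCODE version 29 on GRCh38. The labels describe strands marked with dUTP and the methods a strand-specific kit; whether counting used the strand is not given in the sources used here. The authors deposited a signal table of counts divided by size factors, with their own log2 fold changes and p-values, which were read only to see how the table was restricted.

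The design allowed for raw counts or normalized values, and the file called for the second. limma 3.58.1 (R 4.3.3) with a trend was fitted to log2(value + 1), with the group as the only term, for genes that reached 1 normalized count in 3 or more libraries. Whole reads (tolerance 0.02) were passed to edgeR 4.0.16 and DESeq2 1.42.0 as alternatives. On simulated counts of 5678 genes with 200 changed by 2 on the log2 scale, limma recovered 93.5% with 3 false calls. Motifs were searched in RefSeq windows, of which TXNIP has 2 (that at the gene's annotated start was printed) and ARRDC4 has 1. Each printed stretch ends before the earlier of the RefSeq and GENCODE starts.

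The members and lists were chosen with earlier results of these data known. Listed genes were named where they were in the table, with the 5 nearest profiles and the table's genes within 500 kb; 1 result is not reported here. RCN3, HPF1, TIGD1, STX12 and MYL5 were named afterwards for their motif match. Intervals on reads cover counting error only.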

Additional observations from a re-analysis of the deposited data

How the results depend on the processing

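TXNIP and ARRDC4 stayed lower in shOGT under every alternative run. Rescaling by the median of ratios moved their log2 fold changes to −3.26 and −2.07, and called 4070 genes, 1090 of them lower, against 5636 and 2677. Its factors, like those of TMM, rest on the restricted genes alone. These genes do not meet the assumption of both methods that most genes are unchanged. No other alternative moved either value by more than the spread between replicates. With each library left out in turn, TXNIP ran from −4.08 to −3.85 and ARRDC4 from −2.90 to −2.66. Of the 32 listed genes called, 24 were called after rescaling and 31 or 32 without any one library. The pseudocounts of 0.1 and 5, the filters, the ordinary linear model, edgeR and DESeq2 left 32. None of the other listed genes changed direction under any alternative. No paired analysis was possible because the labels number the libraries from 1 to 6 without repeating a number. Genes outside the table could not be weighed, which limits each list to genes already past a 2-fold change.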
